A study of Gallus gallus with 5 samples.

Results

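Chromosome 3 is one of the macrochromosomes, the large chromosomes of the chicken, and its peaks of 2 histone arginine marks are described here along its length. Members were all peaks whose chromosome column reads 3, with or without the prefix chr, in 5 deposited peak lists. They number 36379 of 425322 peaks in all. Of these, 7996 came from H3R2me2s replicate 1, 11276 from H3R2me2s replicate 2, 5664 from H4R3me2a replicate 1, 10519 from H4R3me2a replicate 2 and 924 from input chromatin. The choice used position alone and no measured value.

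All 5 libraries came from chicken erythrocyte nuclei at the immature, polychromatic stage, in G0, with no treatment named in the labels, fixed with 0.5% formaldehyde and sheared to 200 bp. H3R2me2s and H4R3me2a were each precipitated with their own antibody in 2 libraries, and 1 library was input without antibody. SOLiD sequencing with a control at peak calling gave replicate 1 of each mark, while Illumina sequencing with no control gave replicate 2 and the input. Size selection to 100 to 250 bp is described for the SOLiD libraries. Replicate number therefore goes together with platform, this size selection, depth, caller and control, and these cannot be told apart. The design text names 2 biological replicates per mark but no animals, so any p here measures the spread between these libraries, which may be technical in part. The labels name different breeds in different fields, and none is used here.

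In H3R2me2s, arginine 2 of histone H3 carries 2 methyl groups in the symmetric form. PRMT5 is the main enzyme known to make this form, and in human cells this mark is known to be bound by WDR5, a subunit of the complexes that methylate lysine 4 of H3. In H4R3me2a, arginine 3 of histone H4 carries them in the asymmetric form, a mark that PRMT1 makes and that is known from active chromatin, including the globin genes of chicken erythrocytes. Bird erythrocytes keep their nucleus, and most of their chromatin condenses as they mature. Macrochromosomes hold long gene-poor stretches between gene-rich ones.

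Depth after removal of repeated positions was 10.3 to 35.1 M tags for the 4 ChIP libraries and 27.1 M for the input, per the file headers. The deeper list of each mark held more peaks on chromosome 3. For the 3 Illumina libraries the header and the label give different numbers to the aligned reads, and the reads of H4R3me2a replicate 1 are called H3R3me2a in its header, inside a folder named H4R3me2a. Groups follow the labels, so values of replicate 2 and the input rest on them.

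Chromosome 3 was of middle density among the macrochromosomes. H3R2me2s had 70.4 peaks per Mb in replicate 1 and 99.2 in replicate 2. H4R3me2a had 49.8 peaks per Mb in replicate 1 and 92.55 in replicate 2, and the input had 8.13. In each ChIP list chromosome 3 was the third of chromosomes 1 to 5 by density, below chromosome 5 and above chromosome 2. Against chromosomes 1, 2, 4 and 5 together its density was 1.04 times as high in H3R2me2s replicate 1, 0.992 in replicate 2, 1.02 in H4R3me2a replicate 1 and 0.9895 in replicate 2. The mean log2 ratio was 0.01 ± 0.04 (SD, n = 4 libraries). It was above 0 in the 2 replicate 1 libraries and below 0 in the 2 replicate 2 libraries. A 2-sided exact sign permutation over libraries gave p = 0.625 (adjusted p = 0.9375 over 3 tests). This permutation takes the 4 libraries as independent, although those of 1 replicate number share platform and caller. For the input, with 1 library and no test, the ratio was 0.810. The ChIP ratio turned to 0.970 with covered bases in place of peak number, where each library was below 1, and to 0.991 without replicate 1. Off input peaks it was 1.02, with each library above 1. The direction thus depended on the measure.

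Peaks covered 5.65% of the 113.7 Mb that the lists span for H3R2me2s replicate 1 and 7.21% for replicate 2. For H4R3me2a they covered 4.43% in replicate 1 and 4.95% in replicate 2, and for the input 0.152%. The median H3R2me2s peak was 663 bp wide in replicate 1 and 597 bp in replicate 2, the median H4R3me2a peak 742 and 418 bp, and the median input peak 147 bp. On the other 4 macrochromosomes the median widths were 670, 611, 754, 431 and 150 bp in the same order. The fragment lengths that the caller gave were 151, 334, 187, 236 and 99 bp in this order. They differ between the lists, and their part in the widths was not tested. Peaks of any ChIP list together covered 10.7% of chromosome 3.

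Peak number varied widely along the chromosome for both marks. In bins of 1 Mb the peak number of H3R2me2s replicate 1 went from 0 to 284 with a median of 50. Replicate 2 of this mark went from 0 to 253 with a median of 88. H4R3me2a had 0 to 222 peaks per bin with a median of 38 in replicate 1, and 0 to 245 with a median of 76 in replicate 2. The 0 of each ChIP list was 1 bin, chr3:12000001-13000000, without a peak of any of the 5 lists. The next lowest bin, chr3:38000001-39000000, held 4 and 24 H3R2me2s and 2 and 19 H4R3me2a peaks in replicates 1 and 2. The input had 0 to 22 per full bin with a median of 7. The 23 fullest of the 113 full bins held 48.1% of H3R2me2s peaks in replicate 1 and 37.7% in replicate 2, and 48.3 and 38.6% of H4R3me2a peaks. The 23 emptiest held 5.14 and 8.44% for H3R2me2s and 4.93 and 8.24% for H4R3me2a. Replicate 1 thus varied more between bins, with a coefficient of variation of 0.853 for H3R2me2s and 0.876 for H4R3me2a, against 0.529 and 0.558 in replicate 2.

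**Figure D1:**
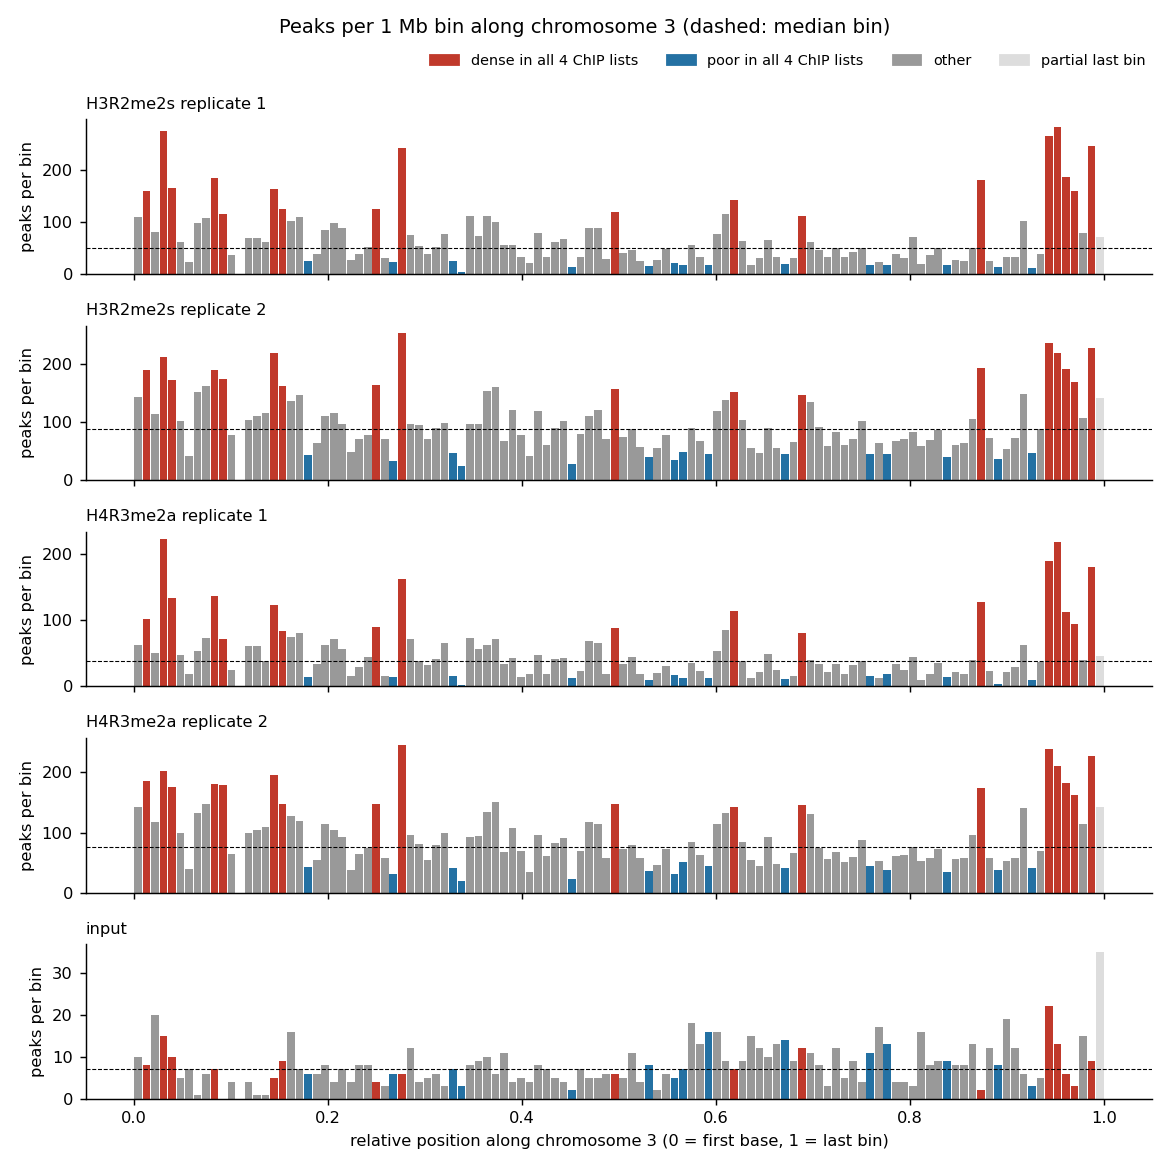
Peaks per 1 Mb bin (y axis) along chromosome 3 (x axis, relative position) in the 5 lists, with bins in the upper 20% of all 4 ChIP lists in red, bins in the lower 20% of all 4 in blue and the median bin as a dashed line. Of the 18 red bins, 3 lie in the first 5 Mb and 5 from 107 Mb on, where their longest run starts. The others lie between as single bins or pairs. Full bins of the input hold at most 22 peaks.

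Density was lower in the later middle of the chromosome than at its start, with local rises between, and higher again towards the end. In segments of 10 Mb, H3R2me2s fell from 126.5 peaks per Mb in the first 10 Mb to 34.8 at chr3:80000001-90000000 in replicate 1. The other ChIP lists were lowest in the same segment. H3R2me2s replicate 2 fell from 147 to 68.5 peaks per Mb between these segments, H4R3me2a replicate 1 from 90.1 to 25.6 and H4R3me2a replicate 2 from 142 to 59.4. From there density rose, and in the last 3.66 Mb it was 152 and 176 peaks per Mb for H3R2me2s in replicates 1 and 2 and 97.9 and 177 for H4R3me2a. Input density took another course between the ends. It was 8.9 peaks per Mb in the first 10 Mb and 4.7 to 6.9 in the 5 segments from 10 to 60 Mb. In the 5 segments from 60 to 110 Mb, where most ChIP segments were sparse, it was 8.0 to 11.2. It was highest in the last 3.66 Mb, at 17.0, where the ChIP lists were high as well.

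Density was higher at both ends of the chromosome in each ChIP library. In the first 5 Mb H3R2me2s had 158 peaks per Mb in replicate 1 and 166 in replicate 2, against 61.9 and 92.1 in the interior. H4R3me2a had 114 and 164 peaks per Mb there, against 44.2 and 84.9. The last 5 Mb were alike, with 158 and 179 peaks per Mb for H3R2me2s and 102 and 179 for H4R3me2a. The ratio of both ends to the interior was 2.55 and 1.87 in the H3R2me2s replicates, a mean of 2.21 ± 0.483 (SD, n = 2), and 2.44 and 2.02 for H4R3me2a, a mean of 2.23 ± 0.299 (SD, n = 2). Over the 4 libraries the mean log2 ratio was 1.14 ± 0.22 (SD, n = 4), above 0 in 4 of 4. A 2-sided exact sign permutation found 2 of 16 arrangements as extreme, the fewest that 4 libraries allow (adjusted p = 0.375). The design therefore cannot pass 0.05. This permutation too takes the 4 libraries as independent, although those of 1 replicate number share platform and caller. The input also had a ratio above 1, at 1.80, with 12.6 and 14.8 peaks per Mb in the first and last 5 Mb against 7.59 between. Of its 74 peaks in the last 5 Mb, 25 lay in the last 100 kb bin, so this input density was not spread evenly over the end. Without the ChIP peaks that overlap an input peak, the ChIP ratio was 2.23, against 2.20 with them. Only 3.91 to 6.48% of the peaks of a ChIP list did so, and leaving them out could move the ratio little. The part of the input in the ChIP ratio was not tested.

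The marks did not differ in this ratio by more than the spread between libraries. The mean log2 end ratio of H4R3me2a minus that of H3R2me2s was 0.02 ± 0.12 (SD over the 2 replicate numbers). H4R3me2a was lower in replicate 1 and higher in replicate 2, and a 2-sided exact permutation over the 4 libraries gave p = 1, with 6 of 6 arrangements as extreme and 2 of 6 the fewest possible. So small a design cannot show that the marks act alike.

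**Figure D2:**
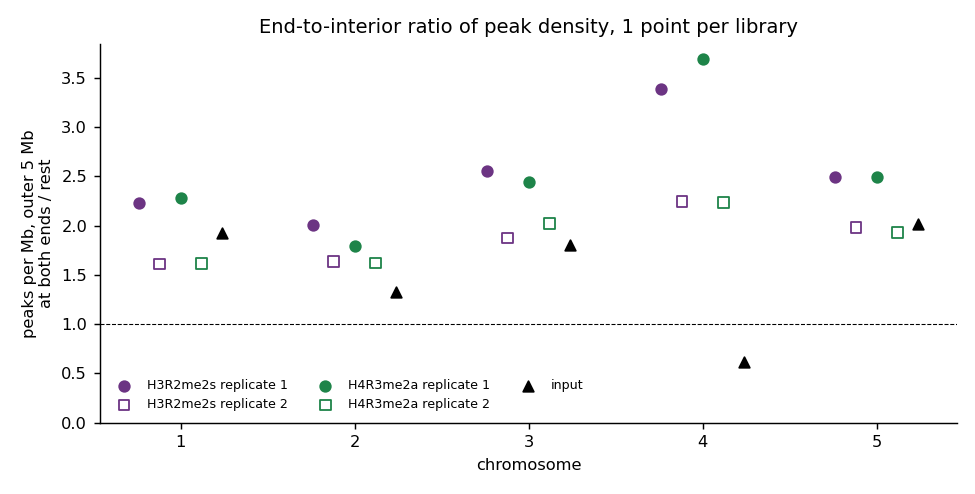
Ratio of peaks per Mb in the outer 5 Mb at both ends to peaks per Mb in the rest (y axis) for chromosomes 1 to 5 (x axis), 1 point per library. On chromosome 3 the ChIP libraries lie between 1.87 and 2.55 and the input at 1.80. All ChIP points on the 5 chromosomes are above 1, while the input of chromosome 4 is at 0.616.

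The 2 ends of chromosome 3 were close to each other in density. Its first and last 5 Mb were at 2.56 and 2.55 times the interior in H3R2me2s replicate 1. On chromosome 2 these ratios were 2.86 and 1.15 in the same library, on chromosome 4 they were 4.83 and 1.93, on chromosome 5 they were 1.35 and 3.65, and on chromosome 1 they were 1.71 and 2.74. In H3R2me2s replicate 2 chromosome 3 had 1.80 and 1.94, in H4R3me2a replicate 1 it had 2.58 and 2.30, and in H4R3me2a replicate 2 it had 1.94 and 2.10. The contrast with other chromosomes was smaller in H4R3me2a replicate 2. There chromosome 1 had 1.47 and 1.76, chromosome 2 had 2.03 and 1.21, chromosome 4 had 2.85 and 1.61, and chromosome 5 had 1.34 and 2.51. The input ends were at 1.66 and 1.95 on chromosome 3. They were at 2.01 and 1.83 on chromosome 1, 1.38 and 1.27 on chromosome 2, and 2.00 and 2.03 on chromosome 5. On chromosome 4 the input ends were at 0.681 and 0.550, below the interior, while both ends were above it in each ChIP list. The balance of the 2 ends of chromosome 3 is a description of 5 chromosomes, noticed in the values, and was not tested.

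Dense bins were defined as full 1 Mb bins in the upper 20% of chromosome 3 by peak number in each of the 4 ChIP lists. These values chose the bins, so what follows on their peak numbers is a description. There were 18 such bins among 113, which is 15.9%; on chromosomes 1, 2, 4 and 5, each against its own bins, 15.1% were called by the same rule. They formed 12 blocks, 8 of them a single bin, and 3 of the 18 bins lay in the first 5 Mb and 5 from 107 Mb on. These ranges are the first 5 and the last 6 of the 113 full bins. The limit at 107 Mb is the start of the longest block, so the same values set it. The dense bins held 40.7 and 30.4% of the H3R2me2s peaks of chromosome 3 in replicates 1 and 2, and 41.0 and 31.3% of the H4R3me2a peaks. Of the input peaks they held 15.6%, which is close to their 15.9% of the bins.

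The largest block was chr3:107000001-111000000, 4 adjacent bins near the end of the chromosome. It held 896 H3R2me2s peaks in replicate 1 and 813 in replicate 2, and 613 and 796 H4R3me2a peaks. These peaks covered 22.3 and 15.0% of it for H3R2me2s and 17.2 and 9.98% for H4R3me2a, and 44 input peaks covered 0.168%. The bin before it held 39 and 88 H3R2me2s peaks and 36 and 70 H4R3me2a peaks, so the step between 1 Mb bins was large in all 4 lists. The border itself was less sharp. H3R2me2s replicate 2 had 19 peaks at chr3:106800001-106900000, before the block, and 16 at chr3:107200001-107300000, within it. Replicate 1 had 8 and 17 there, and 35 in the 100 kb that followed. At 100 kb the block was not even. H3R2me2s replicate 1 reached 48 peaks per 100 kb at chr3:107900001-108000000 and at chr3:108200001-108300000, where replicate 2 had 22 and 23. It had none at chr3:110800001-110900000, inside the same block, where replicate 2 had 1. Of its 40 bins of 100 kb, 34 were above the chromosome's median in all 4 lists.

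Another dense bin, chr3:112000001-113000000, lay beyond a sparser bin. It held 247 and 228 H3R2me2s peaks and 180 and 228 H4R3me2a peaks in replicates 1 and 2. The bin between it and the large block held 79 and 106 H3R2me2s peaks and 39 and 115 H4R3me2a peaks. In the last 657 kb replicate 1 had 0.504 times the H3R2me2s peaks and 0.317 times the H4R3me2a peaks of replicate 2. These ratios lie within those of full bins neither dense nor poor, 0.309 to 1.16 for H3R2me2s and 0.173 to 0.785 for H4R3me2a. H3R2me2s had 108 peaks per Mb in replicate 1 and 214 in replicate 2, and H4R3me2a had 68.4 and 216. The input had 53.2 peaks per Mb in this stretch, 25 of its 35 peaks within the last 100 kb bin, and its part in the difference between replicates was not tested.

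**Figure D3:**
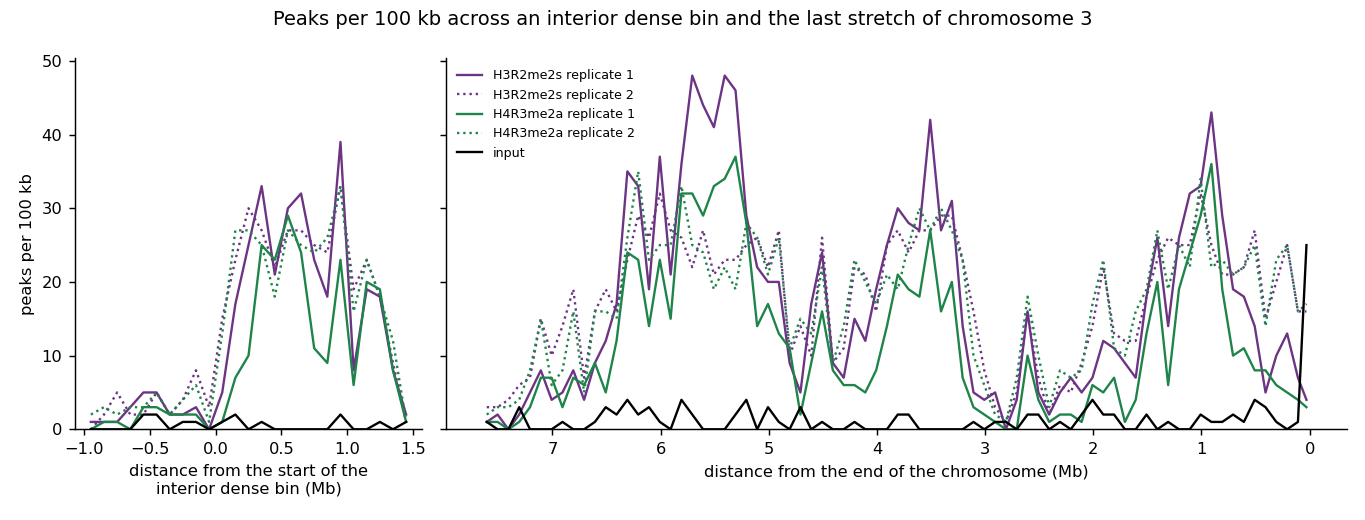
Peaks per 100 kb (y axis) in the 5 lists across the dense bin at 31 Mb, as distance from its start (left), and across the last stretch of the chromosome, as distance from its end (right). Peak numbers rise within a few 100 kb in all 4 ChIP lists; replicate 1 reaches 48 where replicate 2 stays at or below 35, and the input rises to 25 only in the last bin.

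A dense and a poor bin were direct neighbours at 31 Mb. The bin chr3:31000001-32000000 held 243 H3R2me2s peaks in replicate 1 and 253 in replicate 2, the highest bin of replicate 2, and 162 and 245 H4R3me2a peaks. The bin before it, chr3:30000001-31000000, was one of the poorest, with 23 and 33 H3R2me2s peaks and 14 and 31 H4R3me2a peaks. Both bins had 6 input peaks. At 100 kb, H3R2me2s replicate 2 went from 3 peaks at chr3:30900001-31000000 to 15 in the next 100 kb and 23 in the one after it. The dense stretch ran past the bin, to about 32.4 Mb, where 100 kb held 1 or 2 peaks of each ChIP list. H3R2me2s peaks covered 27.9% of this bin in replicate 1 and 20.3% in replicate 2, those of H4R3me2a 21.1 and 13.04%, and input peaks 0.117%.

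Near the start, the block chr3:3000001-5000000 held 441 and 384 H3R2me2s peaks and 355 and 377 H4R3me2a peaks. It was flanked by a bin with 81 and 113 H3R2me2s peaks before it and one with 61 and 101 after it. The bin chr3:1000001-2000000 was dense as well, with 159 and 189 H3R2me2s and 102 and 185 H4R3me2a peaks, and it held the 100 kb bin of highest summed rank, chr3:1800001-1900000, with 43 and 31 H3R2me2s peaks and 36 and 29 H4R3me2a peaks beside 1 input peak. The first Mb was lower, at 110 and 143 H3R2me2s and 63 and 143 H4R3me2a peaks, so density did not peak at the very tip.

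The blocks chr3:9000001-11000000 and chr3:16000001-18000000 followed in size. The former held 301 and 363 H3R2me2s peaks and 208 and 360 H4R3me2a peaks, and the latter 289 and 381 H3R2me2s and 207 and 344 H4R3me2a peaks. Input peaks numbered 7 and 14 in these blocks. The remaining dense bins stood alone between sparser ones. Of these, chr3:99000001-100000000 was the highest, with 181 and 193 H3R2me2s peaks and 127 and 174 H4R3me2a peaks beside 2 input peaks, and the bin after it held 25 and 72 H3R2me2s peaks. The bins starting at 28, 56, 70 and 78 Mb held 112 to 143 H3R2me2s peaks in replicate 1.

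Just inside the limit lay chr3:78000001-79000000, with 112 and 147 H3R2me2s and 80 and 145 H4R3me2a peaks. One bin just outside was chr3:8000001-9000000, with 107 and 162 H3R2me2s and 73 and 147 H4R3me2a peaks, which missed in 1 list, H3R2me2s replicate 1, whose limit was 108.2 peaks.

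Poor bins were those in the lower 20% in each of the 4 ChIP lists. There were 16 of 113, or 14.2%, against 15.1% on the other 4 macrochromosomes, and 10 of the 16 lay between 60 and 107 Mb, a range picked after the values were seen, which holds 47 of the bins. They held 3.19 and 5.29% of the H3R2me2s peaks in replicates 1 and 2, and 3.20 and 5.27% of the H4R3me2a peaks. Of the input peaks they held 12.8%. They formed 14 stretches, 12 of them a single bin and none longer than 2 bins.

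The longest were chr3:37000001-39000000 and chr3:63000001-65000000. The former held 29 and 70 H3R2me2s peaks and 17 and 60 H4R3me2a peaks, with 10 input peaks. In its second bin, chr3:38000001-39000000, H3R2me2s had 4 peaks in replicate 1 and 24 in replicate 2, and H4R3me2a had 2 and 19. The bins on either side of this stretch held 77 and 111 H3R2me2s peaks in replicate 1. The stretch from 63 Mb held 38 and 84 H3R2me2s and 29 and 82 H4R3me2a peaks, with 12 input peaks. Of the single bins, chr3:51000001-52000000 held 13 and 27 H3R2me2s peaks and 12 and 22 H4R3me2a peaks, and chr3:101000001-102000000 held 13 and 36 H3R2me2s and 4 and 37 H4R3me2a peaks, with 2 and 8 input peaks.

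Just inside the limit lay chr3:37000001-38000000, with 25 and 46 H3R2me2s and 15 and 41 H4R3me2a peaks. One bin just outside was chr3:46000001-47000000, with 21 and 42 H3R2me2s and 19 and 35 H4R3me2a peaks, which missed in H4R3me2a replicate 1, whose limit was 18 peaks.

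A stretch of 1509 kb, chr3:11620576-13129522, held no peak of any of the 5 lists, the input included. The full bin inside it, chr3:12000001-13000000, was therefore counted among the 16 poor bins, and it is the 1 full bin of the chromosome without a ChIP peak. What the assembly holds there was not examined, since no genome of the build was used here. The stretch therefore says nothing about the marks. The next longest stretches without a ChIP peak were far shorter, at 152 kb (chr3:51054369-51206146), 147 kb (chr3:38091200-38238438), 138 kb (chr3:110754197-110892315) and 137 kb (chr3:96932200-97069411). Those at 51 and 38 Mb lie in poor bins, and the one at 110 Mb lies inside the large dense block. In all, 23 stretches of 100 kb or more were free of ChIP peaks, and they held 4.11 Mb. Of 1137 bins of 100 kb, 938 (82.5%) held a peak of all 4 ChIP lists and 18 (1.58%) held none. The stretch of 1509 kb is part of the 4.11 Mb and makes up most of these 18 bins.

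The order of the bins was much alike in the 4 ChIP lists. Over the 113 full bins, Spearman rho was 0.960 between the H3R2me2s replicates and 0.945 between the H4R3me2a replicates. It was 0.978 from one mark to the other in the SOLiD libraries and 0.9896 in the Illumina libraries. Bins are not independent samples and the lists of 1 platform share their caller, and the replicate 1 lists also their control, so these values are given as a description with no p. Between the input and the ChIP lists rho was 0.0166 to 0.0418.

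**Figure D4:**
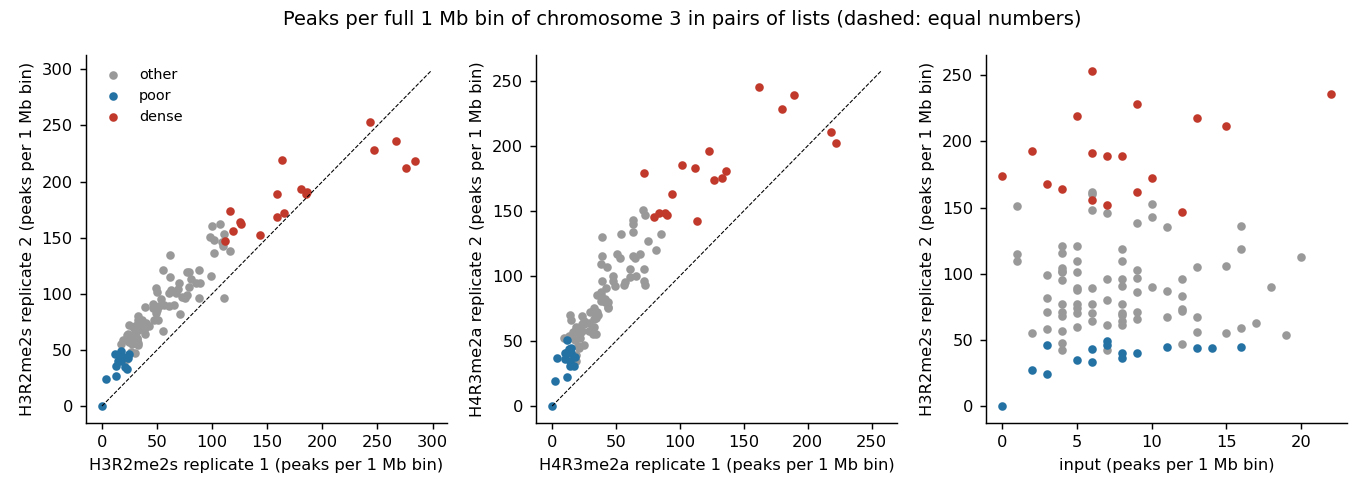
Peaks per full 1 Mb bin of chromosome 3, replicate 1 (x axis) against replicate 2 (y axis) for H3R2me2s (left) and H4R3me2a (middle), and input (x axis) against H3R2me2s replicate 2 (y axis, right), with 1 point per bin. Replicates rise together with a bend at high density, while input numbers from 0 to 22 go with any ChIP number.

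Bins picked in the SOLiD libraries were read in the Illumina libraries, which had no part in the choice. The 21 bins in the upper 20% of both replicate 1 lists held 181 ± 37.7 H3R2me2s peaks in replicate 2 (SD over bins), against 79.7 ± 33.2 in the other 92 bins, a ratio of 2.27. For H4R3me2a they held 173 ± 39.0 against 73.3 ± 32.1, a ratio of 2.36. Of the 21 bins, 18 were in the upper 20% of each replicate 2 list. The input had 8 ± 4.79 peaks in them and 7.84 ± 4.48 elsewhere. The 21 bins in the lower 20% of both replicate 1 lists held 0.383 times the H3R2me2s peaks and 0.379 times the H4R3me2a peaks of the others in replicate 2. In these bins the input had 8.48 peaks, against 7.73 elsewhere.

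The replicates differed in how far they rose in dense bins. H3R2me2s replicate 1 had 0.951 times the peaks of replicate 2 in dense bins, 0.620 times in other bins and 0.427 times in poor bins. For H4R3me2a these ratios were 0.706, 0.477 and 0.327. Replicate 1 of H3R2me2s exceeded replicate 2 in 5 of 113 bins, 4 of them dense, although it had fewer peaks in all. Depth, platform, size selection, caller and control all moved with this difference, and their parts cannot be told apart.

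**Figure D5:**
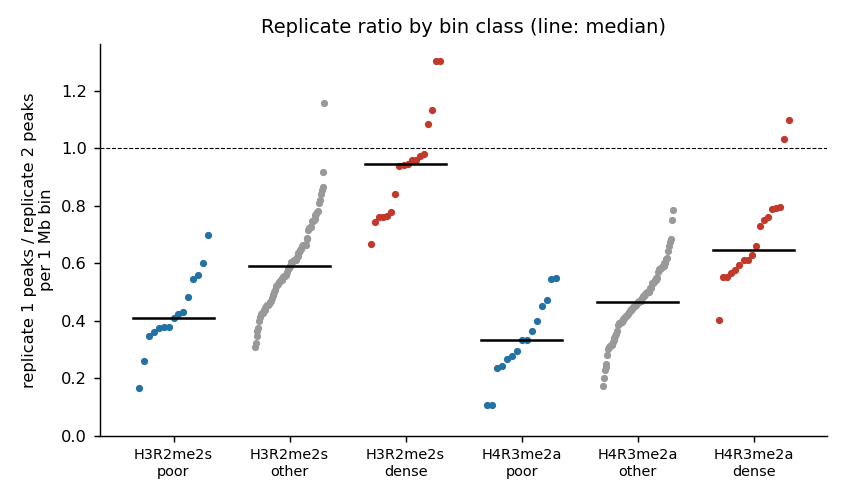
Replicate 1 peaks over replicate 2 peaks per full 1 Mb bin (y axis) for poor, other and dense bins of each mark (x axis), 1 point per bin with the median as a line. The H3R2me2s median is 0.409 in poor and 0.944 in dense bins, and the H4R3me2a median 0.3333 and 0.644; the same lists defined the classes.

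Within a platform the pooled balance of the marks changed less between the bin classes. Dense and poor bins had to be so in both marks, so a flat ratio over the classes is in part built in. H4R3me2a had 0.714 times the peaks of H3R2me2s in dense bins, 0.705 in other bins and 0.710 in poor bins of replicate 1. In replicate 2 the ratios were 0.961, 0.918 and 0.928. Single bins of replicate 1 ran from 0.591 to 0.806 in dense, 0.424 to 0.96 in other and 0.308 to 1 in poor bins. In replicate 1 H4R3me2a was below H3R2me2s in 111 bins and equal in 2. In replicate 2 it was below in 93, equal in 9 and above in 11. The bin without any peak, chr3:12000001-13000000, is among the equal bins in each replicate.

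Peaks in dense bins were a little wider in replicate 1 and had lower fold enrichment in replicate 2. These are the authors' values per peak, read within a list. Median H3R2me2s widths in replicate 1 were 700 bp in dense, 644 bp in other and 626 bp in poor bins, and in replicate 2 they were 607, 594 and 586 bp. Median H4R3me2a widths were 798, 716 and 693 bp in replicate 1 and 420, 419 and 419 bp in replicate 2. The deposited median fold of H3R2me2s replicate 2 was 2.75 in dense, 3.24 in other and 3.53 in poor bins, and of replicate 1 it was 9.81, 9.21 and 8.82, so the order was opposite. For H4R3me2a it was 2.86, 3.26 and 3.46 in replicate 2 and 13.5, 12.6 and 11.6 in replicate 1. The replicates also differ in platform, size selection, depth, caller and control, and the part of these in the widths and in the order of the folds was not tested.

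Input peaks lay under a small share of ChIP peaks, and under a larger share in poor bins. Most input peaks, in turn, lay under a replicate 2 peak of each mark. Of H3R2me2s peaks on chromosome 3, 3.91% (95% Wilson interval 3.51 to 4.36) overlapped an input peak in replicate 1 and 6.02% (5.60 to 6.48) in replicate 2. Of H4R3me2a peaks, 5.42% (4.86 to 6.04) did in replicate 1 and 6.48% (6.03 to 6.97) in replicate 2. On the other 4 macrochromosomes the shares were 4.89, 7.26, 6.70 and 7.87% in this order, with more input peaks per Mb (10.04 against 8.13). Within chromosome 3 the H3R2me2s share was 1.72 and 3.33% in dense bins and 11.8 and 12.1% in poor bins of replicates 1 and 2. The H4R3me2a share was 2.62 and 3.31% in dense bins and 16.0 and 13.4% in poor bins. Input peaks per bin were 8 in dense and 7.38 in poor bins on average. In H3R2me2s replicate 1, 56 peaks in the 18 dense bins and 30 in the 16 poor bins overlapped an input peak. Seen from the input, 88.9% of its 924 peaks overlapped an H3R2me2s peak and 86.9% an H4R3me2a peak in replicate 2. In replicate 1 these shares were 41.2 and 40.04%. On the other 4 macrochromosomes they were 87.9 and 86.1% in replicate 2 and 43.9 and 43.6% in replicate 1. The replicates differ in peak number, depth, platform, size selection, caller and control, and the part of these in the shares was not tested. Intervals cover counting error only and treat neighbouring peaks as independent, which they are not.

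The largest group of input peaks on the chromosome lay at its very end, at chr3:113643851-113653598, with 12 peaks joined over gaps of at most 3 kb. A single peak of each replicate 1 list covered 100% of it, and 4 H3R2me2s and 7 H4R3me2a peaks of replicate 2 covered 43.0 and 35.9%. The next, chr3:98836281-98840653, had 7 input peaks over 71.8% of its length. H3R2me2s covered 71.0 and 77.5% of it and H4R3me2a covered 74.0% in replicate 2, with no H4R3me2a peak in replicate 1. The smallest of the 3, chr3:102900868-102907786, had 6 input peaks, and all 4 ChIP lists covered 62.8 to 67.5% of it.

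At the level of single sites, most replicate 1 peaks on chromosome 3 overlapped a replicate 2 peak of the same mark, and most H4R3me2a peaks overlapped an H3R2me2s peak of the same replicate. Of H3R2me2s replicate 1 peaks, 69.9% (68.9 to 70.9) overlapped a replicate 2 peak, and of H4R3me2a replicate 1 peaks 74.3% (73.1 to 75.4) did. On the other macrochromosomes the shares were 69.9 and 74.5%. Seen from replicate 2, the longer list, 47.7% of H3R2me2s and 41.4% of H4R3me2a peaks overlapped a replicate 1 peak. On the other macrochromosomes 46.0 and 41.0% did. Within replicate 1, 86.2% (85.3 to 87.1) of H4R3me2a peaks overlapped an H3R2me2s peak, and within replicate 2, 84.5% (83.8 to 85.2) did. From the side of H3R2me2s these shares were 62.2 and 73.8%. The other macrochromosomes were close to these values, with 86.3 and 84.9% of H4R3me2a peaks and 64.2 and 74.2% of H3R2me2s peaks in replicates 1 and 2.

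Regions covered by peaks of all 4 ChIP lists numbered 3634, or 32.0 per Mb, with a median width of 444 bp, and they covered 1.55% of the chromosome. Dense bins held 39.5% of them and poor bins 3.03%, and the number per full bin had a median of 24 and a highest value of 133. Chromosome 5 had 44.6 such regions per Mb, chromosome 4 33.2, chromosome 1 31.6 and chromosome 2 26.6. Input peaks lay on 6.44% of those on chromosome 3, and 3400 lay off them.

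The order of single sites by significance was shared within a platform and not across platforms. Over the 3400 regions off input peaks, Spearman rho of the deposited significance was 0.555 from one mark to the other in the SOLiD lists and 0.680 in the Illumina lists. Between replicates it was 0.0173 for H3R2me2s and 0.108 for H4R3me2a. These are correlations across regions of shared libraries and carry no p. Bins of 1 Mb, ordered by peak number, were alike across platforms, while these regions, ordered by significance, were not. The 2 orders rest on different measures. By deposited fold, rho was 0.351 and 0.804 between the marks in the SOLiD and Illumina lists. Between replicates the fold gave -0.187 for H3R2me2s and -0.0936 for H4R3me2a. The regions named next by mean rank should be read with these limits.

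The region of best mean rank over the 4 lists was chr3:16930146-16931256, 1111 bp in a dense bin and 411 kb from the nearest input peak. Its deposited fold enrichment was 17.75 and 6.33 for H3R2me2s in replicates 1 and 2, and 29.1 and 7.05 for H4R3me2a. A region at chr3:14515119-14516380, 9997 bp from an input peak, had H3R2me2s folds of 17.75 and 8.30 and H4R3me2a folds of 27.6 and 7.92. At chr3:110161972-110162792, in the large dense block, the H3R2me2s folds were 16.3 and 3.65 and the H4R3me2a folds 20.8 and 3.97, and at chr3:3257195-3257679 they were 18.2 and 3.59 for H3R2me2s and 24.96 and 4.23 for H4R3me2a. The other 4 of the 8 best lay 8 to 225 bp from an input peak, at chr3:82176102-82176278, chr3:82176554-82177637, chr3:3054981-3055356 and chr3:26602768-26603654. Only the part shared by the 4 lists is off input peaks. The peaks that gave these 4 their ranks are 776 to 3033 bp wide. Each is longer than its region by more than the distance to the input peak. At each of the 4 regions at least 1 of these peaks therefore overlaps an input peak. The 2 at 82 Mb share their replicate 2 peaks and are not separate sites. Of the 8 regions, 4 lay in dense bins and none in a poor bin. Of all 3634 regions covered in the 4 lists, 39.5% lay in dense bins and 3.03% in poor bins, close to these counts.

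The widest regions off input peaks were chr3:107981365-107983412 (2048 bp), chr3:53929757-53931744 (1988 bp), chr3:1829802-1831620 (1819 bp) and chr3:32175770-32177396 (1627 bp). Those at 107 and 1 Mb lie in dense bins, and the one at 32 Mb lies in the dense stretch that runs past the bin at 31 Mb. Their peaks in the replicate 1 lists were 2316 to 4216 bp wide for H3R2me2s.

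Regions of all 4 lists joined over gaps of at most 3 kb formed 17 chains of 5 or more. The longest, chr3:31533496-31548210, spanned 14.7 kb with 9 regions and no input peak, in the dense bin at 31 Mb. H3R2me2s peaks covered 57.0 and 53.5% of it and H4R3me2a peaks 67.1 and 43.2%. The chains chr3:107431876-107445838 (13.96 kb), chr3:3890148-3902646 (12.5 kb) and chr3:3071878-3081509 (9.63 kb) also lay in dense bins, with 1, 0 and 0 input peaks. The chain chr3:113644150-113656716 (12.6 kb) lay on the group of input peaks at the chromosome end, with 11 of them over 21.2% of it.

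Regions with 1 mark in both replicates and no peak of the other mark were few. Of 5788 H3R2me2s regions, 458 were free of H4R3me2a peaks, which is 7.91% (7.25 to 8.64). Of 4554 H4R3me2a regions, 124 were free of H3R2me2s peaks, which is 2.72% (2.29 to 3.24). On chromosomes 1, 2, 4 and 5 the H3R2me2s share was 7.17 to 7.43% and the H4R3me2a share 1.82 to 3.59%. Of the 458 H3R2me2s regions, 40.6% lay in dense bins and 1.31% in poor bins, against 38.2 and 3.20% of all 5788. The best-ranked were chr3:34845463-34845886, with deposited folds of 14.5 and 3.35 in replicates 1 and 2, chr3:62318277-62319059, with 14.4 and 2.95, and chr3:13631179-13631720, with 13.4 and 4.32. For H4R3me2a they were chr3:102114380-102114390, chr3:108005658-108005791 and chr3:70146364-70146698. The first 2 of these are 11 and 134 bp wide, edges where wider peaks of the 2 lists meet, and the one at 70 Mb, 335 bp wide, had folds of 15.1 and 4.69. Signal below a caller's threshold is not listed, so a region without a peak may still carry the mark. Genes at these sites are not given, since an annotation of the files' build was not used here.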

How the data were processed

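ChIP-seq peak lists of 5 libraries were analysed. The members, lists and rules were chosen with earlier results of these data known. Each library was called alone. Per the file headers, MACS 1.4.2 made the replicate 1 lists with a p cutoff of 1e-05 and 1 control library that both marks share. MACS 2.0.10.20120913 made the other 3 lists with a q cutoff of 0.05 and no control. The aligner is not given in the sources used here, nor is the build, although a folder in the replicate 1 headers has gal3 in its name. Coordinates are those of the files.

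The deposited signal was the pileup height at the summit (Illumina), and the deposited count was the number of tags in a peak (SOLiD). The authors deposited fold enrichment over local background, a ratio, for each peak. The Illumina lists as deposited hold −log10 of p and q, and the SOLiD lists hold a deposited score, 10 times −log10 of p, and a false discovery rate in percent. These values were used within a list only.

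Peaks were placed in bins by their midpoint with Python 3.11.15 (numpy 2.4.6, pandas 2.3.3, scipy 1.17.1). The length of a chromosome was the highest peak end in any list, and assembly gaps were not masked. Overlap meant at least 1 bp. Interval functions were checked on simulated data. Named regions were, off input peaks, the 8 of best mean significance rank and the 4 widest covered by all 4 lists; the 3 best of each mark alone; the 5 longest chains and ChIP-free stretches; up to 6 dense blocks and 6 poor stretches; and the 3 largest input groups; bins beyond these were added after their values were seen. Replicate numbers mark the platform in the labels' protocols, and deviations of same-numbered libraries went together (Pearson r = 0.847 over 113 bins). Wilson intervals (95%) cover counting error only. P-values are 2-sided exact permutations over libraries, adjusted by Benjamini-Hochberg over 3 tests. They take the 4 libraries as independent, although those of 1 replicate number share platform and caller. Alternatives were another bin size, cut, end width, measure, overlap and peak threshold, peaks off input, and each replicate left out.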

Additional observations from a re-analysis of the deposited data

How the results depend on the processing

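Of 70 alternative values, 5 were of a setting added after the data were seen, which left out the stretch free of peaks. Density relative to the other macrochromosomes, 1.01 as reported, turned to 0.970 with covered bases and ranged from 0.991 to 1.03 with a replicate left out. It was 1.02 off input peaks and 1.02 without the stretch free of peaks. The end ratio stayed above 1 in all its settings, at 1.94 to 2.50 with a replicate left out, 2.12 with ends of 2 Mb, 2.07 with ends of 10 Mb and 1.96 among peaks in the upper 50% by fold. The log2 difference of the marks in it was -0.0155 with ends of 2 Mb, and -0.0650 to 0.109 with a replicate left out. With the replicate block it was 0.02, with an exact permutation p = 1, where 0.5 is the smallest 2 pairs allow. The block changed no call.

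Dense bins numbered 11 in the upper 10% of bins, 35 of 227 with bins of 0.5 Mb and 10 of 56 with bins of 2 Mb, and 21 to 22 with a replicate left out. Poor bins numbered 5 and 28 in the lower 10% and 30%, 28 with bins of 0.5 Mb and 7 with bins of 2 Mb, and 21 with either replicate left out. These settings change the number by their construction. Of the 18 dense bins, 17 were also dense by covered bases and 17 off input peaks; of the 16 poor bins, 14 were in both. The density ratio of replicate 2 in bins picked in replicate 1 was 2.41 for H3R2me2s and 2.52 for H4R3me2a in the upper 10% of bins, 2.46 and 2.60 with bins of 0.5 Mb, and 1.95 and 1.99 with bins of 2 Mb.

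Overlap of replicates fell to 62.7% for H3R2me2s and 54.2% for H4R3me2a when at least 50% of the peak had to be covered, and to 46.6 and 53.8% among peaks in the upper 50% by fold, where fewer peaks are left to be hit. Overlap of the marks was 84.4 and 83.5% in replicates 1 and 2 with at least 50% of the peak, 69.9 and 76.9% in the upper 50%, and 84.5 to 86.2% with a replicate left out. The share on input peaks, which are narrow, fell to 0.300 and 0.284% for H3R2me2s and 0.177 and 0.656% for H4R3me2a with at least 50% of the peak, and was 4.44, 8.92, 6.98 and 9.43% in the upper 50%. Peak lists hold no values below the caller's threshold, so poor bins may hold weaker signal that the depth did not show.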
